A study of Homo sapiens with 6 samples.

Results

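Described here are 9 genes for the breakdown of aromatic amino acids, serine and glyoxylate, as measured in Huh-7, a human hepatocellular carcinoma cell line. The members are HPD, TAT, HGD, FAH, TDO2, AGXT, SDS, QDPR and PCBD1, found by matching their Entrez identifiers. They are 9 of the 18030 genes in the deposited tables and account for 20 of 80668 transcripts. The series compares 3 libraries of cells overexpressing ALKBH5 (oeALKBH5) with 3 libraries of control cells labelled wild type. ALKBH5 is an enzyme that removes the N6-methyladenosine (m6A) mark from RNA. By the labels, the ALKBH5 plasmid entered the cells by electroporation and RNA was collected 60 h later. The treatment text of the control samples is the same, whereas the design text speaks of parental cells. Whether the controls went through electroporation or carried an empty plasmid is therefore unclear. The libraries are numbered biological replicates of 1 line. Separate cultures or transfections are not named, so every p-value below reflects variation among these 6 libraries, which could be technical.

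In the liver, phenylalanine is first converted to tyrosine, which consumes the cofactor tetrahydrobiopterin. PCBD1 and QDPR return that cofactor to its active form. Tyrosine is then degraded in turn by TAT, HPD, HGD, an isomerase (GSTZ1) and FAH, ending in fumarate and acetoacetate. TDO2 opens the ring of tryptophan and starts the kynurenine pathway. AGXT converts glyoxylate to glycine in peroxisomes, and SDS deaminates serine to pyruvate. Inherited loss of these enzymes causes tyrosinaemias (FAH, TAT, HPD), alkaptonuria (HGD), primary hyperoxaluria (AGXT) and disorders of tetrahydrobiopterin recycling (QDPR, PCBD1).

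Estimated counts per library summed to between 18607084 and 18826479 with ALKBH5 overexpression and to between 19265686 and 19378030 without it. ALKBH5 mRNA stood at 169, 133 and 110 CPM (estimated counts scaled to the TMM-adjusted library total) in oeALKBH5 and at 70.5, 74.2 and 75.5 CPM in control. ALKBH5 rose, by 0.90 on the log2 scale (SE 0.18; adjusted p = 0.0154 by edgeR), and its groups did not overlap. The adjusted p was 0.0529 without control replicate 2 and 0.0589 without control replicate 3. Across all genes the change was broad: 42.8% of 14168 tested genes passed edgeR at an adjusted p under 0.05, 20.8% higher and 22.0% lower in oeALKBH5. The median log2 fold change of all tested genes was 0.01. The split depended on scaling: unadjusted library sizes gave 4266 higher and 2047 lower genes.

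Of the 9 amino acid genes, 6 of the 8 tested passed in one direction or the other, beside 42.8% of all genes, 2 did not, and SDS was too low to be tested. HPD rose, and it was the 1 member that passed higher, against a background of 20.8% of genes. AGXT, TDO2, TAT, PCBD1 and HGD fell, which is 5 of 8 tested members against a background of 22.0% lower. With unadjusted library sizes 3 members were lower, beside 14.4% of all genes. Without oeALKBH5 replicate 2 there were also 3, beside 2588 lower genes in all against 3114 in the main fit. In both of these alternatives TAT and HGD were the members that missed the threshold. FAH and QDPR did not pass. The median log2 fold change of the 8 tested members was -0.27, and the groups did not overlap in 6 of them, beside 52.8% of all tested genes. The falls ran from 1.11-fold in HGD to 2.12-fold in AGXT. The 8 tested members entered the test through the expression filter, so these counts describe them and do not cover SDS.

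**Figure D1:**
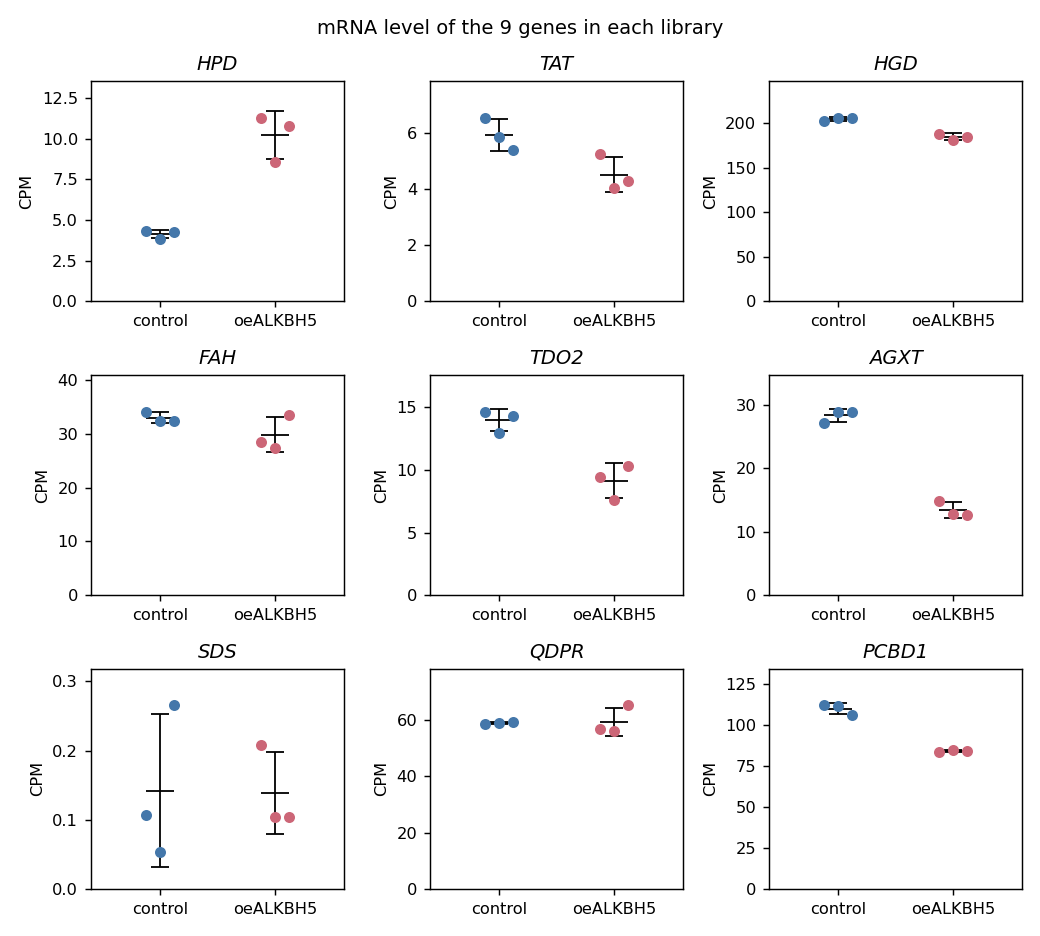
CPM of each of the 9 genes in the 3 control and the 3 oeALKBH5 libraries (points), with the mean and SD of each group (black bars); the vertical axes start at 0 and differ between genes. HPD sits higher in all 3 oeALKBH5 libraries, AGXT, TDO2, TAT, PCBD1 and HGD sit lower, and the groups overlap in FAH, QDPR and SDS.

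The plot of CPM by library shows each member at its own scale. The gap between the groups is wide for HPD and AGXT and narrow for HGD and TAT. In FAH and QDPR the highest oeALKBH5 library, replicate 3 in both, reaches into or above the control range.

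Of the tyrosine enzymes, HPD changed most. HPD, 4-hydroxyphenylpyruvate dioxygenase, turns the keto acid made from tyrosine into homogentisate and is the target of the drug nitisinone. Its main transcript occupies chr12:121839527-121858859 on the minus strand (GRCh38, GENCODE release 29), with 14 exons and 1419 nt. The span of an antisense gene, AC079360.1, introns included, overlaps 126 nt of its exons. Without the strand setting, any reads of that gene there cannot be told apart from those of HPD. HPD mRNA measured 11.3, 8.56 and 10.8 CPM in oeALKBH5 and 4.30, 3.85 and 4.25 CPM in control. Every oeALKBH5 library lay above every control library, with a gap wider than the spread of either group. The mean was 10.2 ± 1.45 CPM with ALKBH5 overexpression against 4.13 ± 0.243 CPM without it (SD, n = 3 libraries each). The difference was 2.47-fold, or 1.30 on the log2 scale (SE 0.13; 95% interval 1.04 to 1.57; adjusted p = 1.16e-07 by edgeR). It ranked 74 from the highest of 14168 tested genes. HPD passed in each of the 14 alternative analyses of counts, with log2 fold changes of 1.23 to 1.42.

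The 250 bases before the start of HPD's main transcript (RefSeq, GRCh38.p14) are printed because HPD is the member that rose. The window is chr12:121858860-121859109 on the minus strand, and the capitals mark its GC box, GGGCGG.
HPD: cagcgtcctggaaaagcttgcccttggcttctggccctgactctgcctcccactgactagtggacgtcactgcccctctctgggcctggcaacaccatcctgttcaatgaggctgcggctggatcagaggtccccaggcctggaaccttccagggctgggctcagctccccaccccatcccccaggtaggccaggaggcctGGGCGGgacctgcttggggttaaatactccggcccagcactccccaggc
This window holds 5 CG pairs, against a median of 11 in 35116 RefSeq promoter windows of the same length. The GC box occurs in 42.6% of those windows on either strand. A second annotated start of HPD lies upstream at position 121888611, and its window holds 29 CG pairs, 3 GC boxes and 1 glucocorticoid receptor half-site, TGTTCT, on the minus strand at 128 to 123 bases before that start.

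TAT, tyrosine aminotransferase, performs the first and rate-limiting step of tyrosine degradation and is a classic glucocorticoid-induced liver gene. It lies at chr16:71565660-71577130 on the minus strand, with 12 exons. TAT mRNA measured 5.25, 4.05 and 4.28 CPM in oeALKBH5 and 6.55, 5.86 and 5.41 CPM in control. The groups did not overlap, although oeALKBH5 replicate 1 lay just below the lowest control. TAT fell, by 1.31-fold (log2 fold change -0.39; SE 0.14; adjusted p = 0.0274 by edgeR). This call was lost in 6 of the 14 alternatives, with adjusted p up to 0.130: without control replicate 1 (0.130), without oeALKBH5 replicate 2 (0.121), with DESeq2 (0.102), with library size alone (0.0745), without oeALKBH5 replicate 3 (0.0641) and without control replicate 2 (0.0608). The span of the antisense gene TAT-AS1, introns included, covers 3854 of the 3983 exon nt of TAT. Overlap between the exons of the pair was not measured. The strand setting of the counting is not given in the sources used here. Where exons of both genes overlap, their reads therefore cannot be told apart.

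HGD, homogentisate dioxygenase, cleaves the aromatic ring in the step after HPD. Its main transcript spans chr3:120628173-120682571 on the minus strand, with 14 exons. HGD mRNA measured 188, 181 and 185 CPM in oeALKBH5 and 203, 206 and 206 CPM in control. The oeALKBH5 libraries were all below the controls, and the spread inside each group was small. HGD fell by 9.81% (log2 fold change -0.15, SE 0.04, edgeR adjusted p = 0.00964). The call was lost with library size alone (adjusted p 0.196), where the log2 fold change was -0.07, and without oeALKBH5 replicate 2 (adjusted p 0.0571).

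FAH, fumarylacetoacetate hydrolase, is the last enzyme of the route, and its main transcript lies at chr15:80152897-80186340 on the plus strand. FAH mRNA measured 28.5, 27.4 and 33.5 CPM in oeALKBH5 and 34.1, 32.4 and 32.3 CPM in control. The groups overlapped: oeALKBH5 replicate 3 lay inside the control range and the other oeALKBH5 libraries lay below it. The log2 fold change was -0.14, with a 95% interval of -0.30 to 0.01 (edgeR adjusted p = 0.120). Without oeALKBH5 replicate 3 it was -0.23 and passed (edgeR adjusted p = 0.00758).

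The cofactor enzymes PCBD1 and QDPR gave different results from each other. PCBD1, pterin-4a-carbinolamine dehydratase, removes water from the spent cofactor. Its main transcript lies at chr10:70883510-70888784 on the minus strand, with 4 exons. PCBD1 mRNA measured 83.7, 84.9 and 84.3 CPM in oeALKBH5 and 112, 112 and 106 CPM in control. The groups lay far apart compared with their spread. PCBD1 fell 1.31-fold (log2 fold change -0.39; SE 0.05; adjusted p = 2.40e-06 by edgeR) and passed in all 14 alternatives.

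QDPR, dihydropteridine reductase, completes the recycling of tetrahydrobiopterin, and its main transcript lies at chr4:17486398-17512234 on the minus strand. QDPR mRNA measured 56.8, 56.0 and 65.2 CPM in oeALKBH5 and 58.5, 58.8 and 59.2 CPM in control. The controls were close together and lay inside the range of the oeALKBH5 libraries. The log2 fold change was 0.01, with a 95% interval of -0.11 to 0.14 (edgeR adjusted p = 0.890), and QDPR passed in 0 of 14 alternatives.

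TDO2, tryptophan 2,3-dioxygenase, is the hepatic entry enzyme of tryptophan breakdown and, like TAT, responds to glucocorticoids in liver. Its main transcript lies at chr4:155903695-155920406 on the plus strand, with 12 exons. TDO2 mRNA measured 9.46, 7.63 and 10.3 CPM in oeALKBH5 and 14.7, 13 and 14.3 CPM in control. All oeALKBH5 libraries were below all controls. TDO2 fell 1.53-fold (log2 fold change -0.61, SE 0.11, edgeR adjusted p = 0.000106) and passed in all 14 alternatives, with adjusted p up to 0.00234. Its promoter window is printed because it differs in composition from that of HPD. The window is chr4:155903446-155903695 on the plus strand, and the capitals mark the 5 motif matches described after it, on either strand.
TDO2: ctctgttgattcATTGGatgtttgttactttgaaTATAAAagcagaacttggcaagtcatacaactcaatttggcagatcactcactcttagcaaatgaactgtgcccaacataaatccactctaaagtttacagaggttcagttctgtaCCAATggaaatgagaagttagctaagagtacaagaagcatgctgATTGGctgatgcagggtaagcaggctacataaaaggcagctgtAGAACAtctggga
It holds 0 CG pairs. A match to the letters of the TATA box, TATAAA, lies 216 to 211 bases before the start. Such a match, at any place and on either strand, occurs in 10.7% of all windows. CCAAT is found at 3 places and occurs in 32% of windows. The glucocorticoid receptor half-site TGTTCT lies on the minus strand at 13 to 8 bases before the start, where the plus strand reads AGAACA, and 12.4% of windows hold it. A match describes the letters and not binding. NR3C1, the glucocorticoid receptor, had a log2 fold change of 0.10 (edgeR adjusted p = 0.199), which did not pass. Its groups did not overlap, and with unadjusted library sizes it was 0.18 and passed (edgeR adjusted p = 0.0246).

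AGXT, alanine-glyoxylate aminotransferase, removes glyoxylate before it can be oxidised to oxalate. Its main transcript lies at chr2:240868479-240879120 on the plus strand, with 11 exons. AGXT mRNA measured 14.8, 12.8 and 12.6 CPM in oeALKBH5 and 27.2, 29 and 29 CPM in control. Both groups were tight and the highest oeALKBH5 library was far below the lowest control. The mean was 13.4 ± 1.22 CPM with ALKBH5 overexpression against 28.4 ± 1.01 CPM without it (SD, n = 3 libraries each). AGXT fell 2.12-fold (log2 fold change -1.08, SE 0.08, edgeR adjusted p = 1.45e-09), the deepest fall among the tested members, and ranked 102 from the lowest of 14168 genes. It passed in all 14 alternatives.

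SDS, serine dehydratase, is strongly expressed in liver tissue but was near the detection limit in these cells. Its main transcript lies at chr12:113392445-113403888 on the minus strand. The oeALKBH5 libraries held 4, 2 and 2 estimated counts of SDS, and the controls held 2, 1 and 5. Each group summed to 8 counts, with an exact Poisson 95% interval of 3.45 to 15.8 that covers counting error only. A difference was not detectable at this depth. Its paralog SDSL fell from 27.2 ± 1.97 to 21.4 ± 1.5 CPM (SD, n = 3 each; log2 fold change -0.34; adjusted p = 0.00107 by edgeR).

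**Figure D2:**
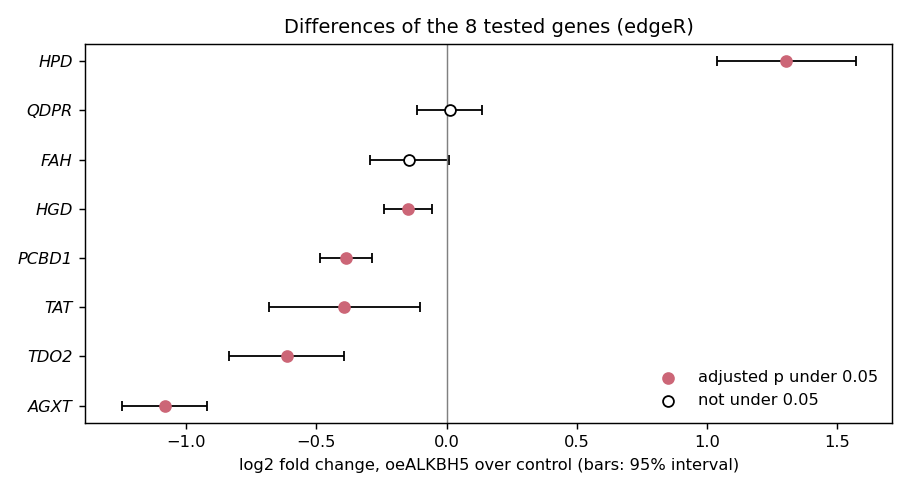
log2 fold change of oeALKBH5 over control for the 8 tested genes, with 95% intervals from edgeR; filled points passed at an adjusted p under 0.05 and open points did not. HPD is alone far to the right, QDPR lies at 0, and AGXT is farthest to the left.

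The plot of log2 fold changes puts the members on 1 scale. The interval of HPD lies above 1 and that of AGXT includes -1. The intervals of HGD, PCBD1, TAT and TDO2 lie below 0, and those of FAH and QDPR include 0.

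Levels of different genes were compared in FPKM, a deposited unit that scales fragments by transcript length and library depth. In control cells the order of mean levels (± SD, n = 3), from high to low, began with PCBD1 at 147 ± 4.41 FPKM, HGD at 123 ± 2.05, QDPR at 39.1 ± 0.422 and FAH at 22.5 ± 0.491 FPKM. AGXT followed at 9.68 ± 0.400 FPKM, then TDO2 at 8.24 ± 0.473, HPD at 2.92 ± 0.145, TAT at 1.49 ± 0.136 and SDS at 0.09 ± 0.072 FPKM. No neighbours in that order overlapped in range over the 3 control libraries. In oeALKBH5 cells HPD moved from place 7 to place 5, at 7.61 ± 1.03 FPKM, and AGXT moved from place 5 to place 7, at 4.83 ± 0.452 FPKM (SD, n = 3). There the ranges of PCBD1 and HGD overlapped, and so did those of TDO2 and AGXT.

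**Figure D3:**
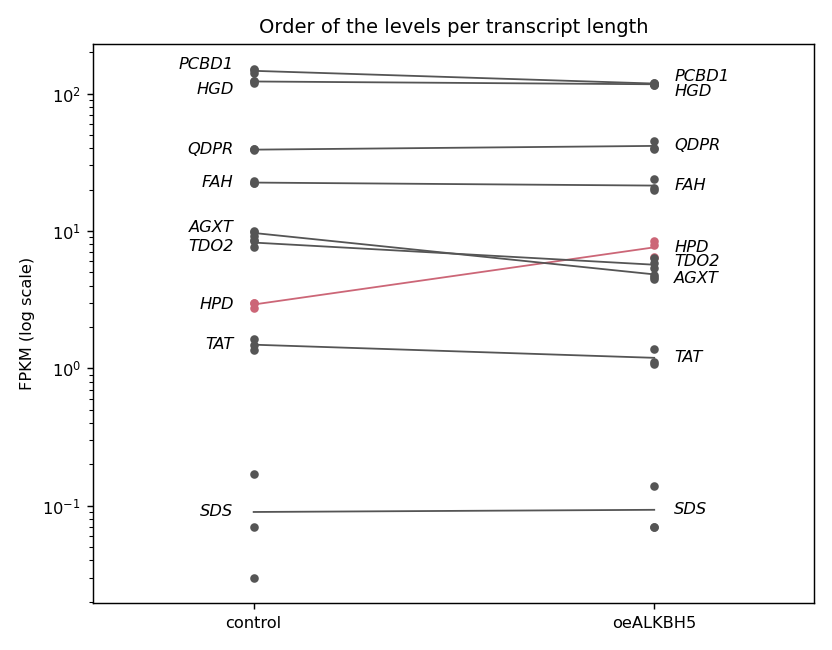
FPKM of the 9 genes on a log axis in control and oeALKBH5 cells; points are libraries, lines join the group means, and HPD is drawn in red. The line of HPD crosses those of TDO2 and AGXT.

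The plot of FPKM by group shows 2 sets of levels. PCBD1, HGD, QDPR and FAH stayed at or above 19.9 FPKM in every library, and the other 5 members stayed at or below 9.94 FPKM. Tested with limma on log2(FPKM + 1), a scale that understates the change of low genes, 1 of 8 members was higher and 3 were lower. Across all genes 29.4% were higher and 16.5% lower on this scale. HPD was higher by 1.13 (limma adjusted p = 3.13e-06). AGXT was lower (difference -0.87, limma adjusted p = 3.39e-06), as were TDO2 (-0.47, limma adjusted p = 0.00115) and PCBD1 (-0.30, limma adjusted p = 0.000156). HGD (limma adjusted p = 0.186), TAT (0.0914), FAH (0.372) and QDPR (0.220) did not pass, although in QDPR every oeALKBH5 library was above every control on this scale. HGD and TAT therefore passed on counts and missed the threshold on FPKM.

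Each member was carried by 1 main transcript, with 84% or more of its estimated counts in both groups. For HPD this was NM_002150.3, with 97.6% of counts in oeALKBH5 and 98.4% in control. Among 45502 tested transcripts, 1.01% passed edgeR in either direction, and 2 member transcripts did. The AGXT transcript NM_000030.3 fell (log2 fold change -1.08, edgeR adjusted p = 0.0220) and so did the PCBD1 transcript NM_000281.4 (-0.34, edgeR adjusted p = 0.0419). Of 9 alternatives, the AGXT transcript passed in 3 (adjusted p up to 0.210) and the PCBD1 transcript in 0 (adjusted p 0.0507 to 0.244). The HPD transcript had a log2 fold change of 1.30, close to that of the gene, with an edgeR adjusted p of 0.0833. The minor PCBD1 transcript NM_001289797.2 was given 165 counts in control replicate 2 and 0 in the other libraries. In HGD, 5 minor transcripts shared the rest of the counts, each with under 10% in both groups.

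The letters GGACT are the most common form of the m6A consensus. The mark itself was not measured here, so these sites describe the mRNAs and nothing about their methylation. Of 19064 genes 88.7% have at least 1 GGACT in their longest coding transcript linked to RefSeq, with a median of 3. The members were read in the transcript with the most counts, so members and background were not chosen alike. HPD has 3, TAT 5, HGD 5, AGXT 2, QDPR 2 and TDO2 1, while FAH, SDS and PCBD1 have 0. Among members that fell, PCBD1 has no such motif and HGD has 2.49 per kb. HPD has 2.11 per kb, against a median of 0.94 in the longest transcripts of all genes. The sites of HPD within 1 exon, that of TDO2 and the coding one of AGXT are shown, since these genes changed by over 1.5-fold, with the motif in capitals.
HPD: aaatcctggtGGACTacgacgagaa
HPD: gcccaccagcGGACTcggcccccaa
TDO2: tgacagccttGGACTtcaatgactt
AGXT: tggagcctggGGACTccttcctggt
The first HPD site lies in the coding part of exon 13 of 14, chr12:121840017-121840041, 207 nt before the end of the coding sequence. The second lies in the 3′ untranslated part of exon 14, chr12:121839608-121839632, 109 nt after that end. The TDO2 site is in exon 5 of 12, chr4:155908987-155909011, and the AGXT site is in exon 2 of 11, chr2:240869285-240869309. The motif of the remaining HPD site starts in exon 11, and the bases around it cross an exon junction.

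The rest of each pathway was read from 9 gene lists, which include the members. In phenylalanine and tyrosine degradation 5 of 6 genes were tested: 1 rose, 3 fell and 1 did not pass, with a median log2 fold change of -0.15. Over all genes 20.8% were higher and 22.0% lower. With unadjusted library sizes 1 gene of this list was lower, beside 14.4% of all genes. Without oeALKBH5 replicate 2 it was also 1, beside 2588 lower genes in all against 3114 in the main fit. HPD was the gene that rose. GSTZ1, the isomerase between HGD and FAH, fell (log2 fold change -0.40, edgeR adjusted p = 0.000989). HPD rose, while TAT before it and HGD and GSTZ1 after it fell. HPDL, a mitochondrial relative of HPD, had 19 counts over the oeALKBH5 libraries and 22 over the controls and was not tested.

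In tetrahydrobiopterin synthesis and recycling 2 of 8 tested genes fell, near the 22.0% of all genes that did. 0 rose, 6 did not pass, and the median was -0.12. Those that fell were PCBD1 and GCH1, the first enzyme of the synthesis (log2 fold change -0.38, edgeR adjusted p = 9.37e-05). PCBD2, the paralog of PCBD1, had a log2 fold change of -0.17 (edgeR adjusted p = 0.298).

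In the tryptophan and kynurenine list 11 of 13 genes were tested: 2 rose, 4 fell and 5 did not pass, with a median of -0.09. Over all genes 20.8% were higher and 22.0% lower. With unadjusted library sizes 3 genes of this list rose and 3 fell, beside 30.1% higher and 14.4% lower over all genes. KYNU, kynureninase, rose 1.54-fold, from 17.4 ± 1.01 to 26.7 ± 0.559 CPM (SD, n = 3 each; edgeR adjusted p = 9.86e-07). ALDH8A1 also rose (log2 fold change 0.55, edgeR adjusted p = 0.0475), a call that missed the threshold in 8 of 13 alternatives. TDO2 fell, as did ACMSD, which diverts the pathway away from NAD synthesis (log2 fold change -0.91, edgeR adjusted p = 5.25e-05). KYAT1 (-0.33, edgeR adjusted p = 0.00132) and QPRT, which feeds NAD synthesis (-0.15, edgeR adjusted p = 0.0140), fell less steeply, and QPRT passed in 11 of 14 alternatives. IDO1 and IDO2, which catalyse the same step as TDO2, were too low to be tested.

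In the serine, glycine, threonine and glyoxylate list 12 of 16 tested genes fell, 0 rose and 4 did not pass. The median was -0.24, and over all genes 22.0% were lower and 20.8% higher. With unadjusted library sizes 9 genes of this list fell and 1 rose, beside 14.4% lower and 30.1% higher over all genes. AGXT fell most by size. AGXT2, a mitochondrial aminotransferase that also uses glyoxylate, fell (log2 fold change -0.49, edgeR adjusted p = 0.000367). DLD, the shared dehydrogenase of the glycine cleavage system, fell as well (-0.36, edgeR adjusted p = 3.10e-05). SDS was among the genes not tested.

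**Figure D4:**
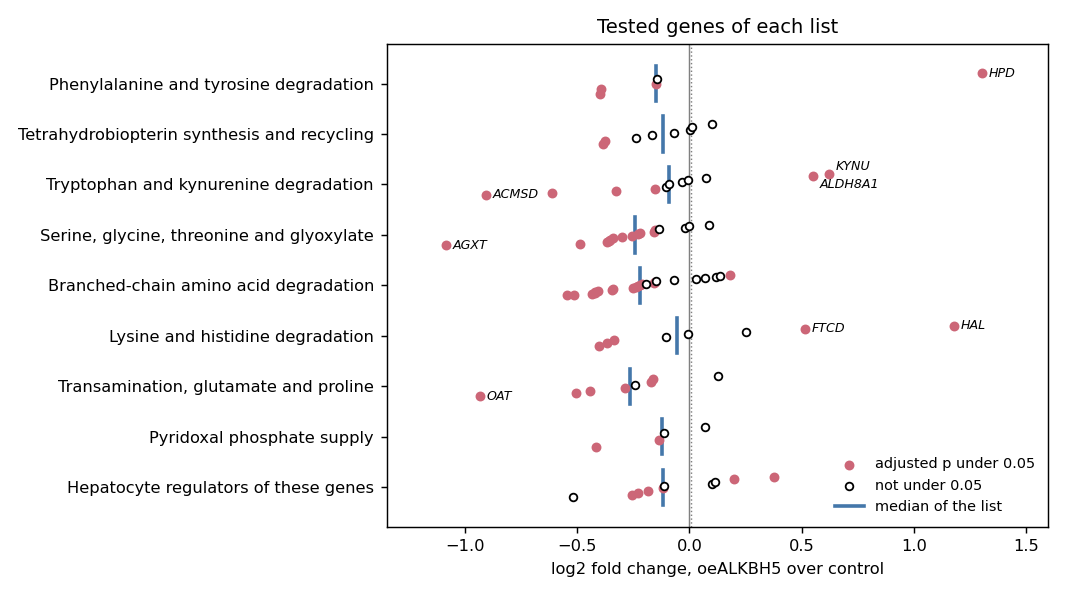
log2 fold change of every tested gene in the 9 lists, with filled points at an edgeR adjusted p under 0.05, open points not under it, and a blue bar at each list's median; the dotted line marks the median of all tested genes. HPD and HAL lie farthest to the right, and AGXT, OAT and ACMSD farthest to the left.

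The plot of the lists shows medians below 0 in all 9, at -0.27 to -0.06, beside a median of 0.01 over all tested genes. The lists were chosen with earlier results of these data known and leave some genes out, so the medians only describe these lists. With unadjusted library sizes 8 medians stayed below 0, and that of lysine and histidine degradation was 0.02. Among branched-chain genes 15 of 23 fell, 1 rose and 7 did not pass, beside 22.0% lower and 20.8% higher over all genes. With unadjusted library sizes 10 of them fell and 3 rose, beside 14.4% lower and 30.1% higher over all genes. PCCA (log2 fold change -0.55), ACADSB (-0.51) and ALDH6A1 (-0.43) fell, and the gene that rose was BCKDK (0.18, edgeR adjusted p = 0.0361), a kinase that inhibits the pathway's dehydrogenase. The groups of BCKDK overlapped, and it passed in 9 of 14 alternatives. Of the transamination, glutamate and proline genes 6 of 8 fell and 0 rose, beside 22.0% lower over all genes. With unadjusted library sizes 4 of them fell and 1 rose, beside 14.4% lower and 30.1% higher over all genes. OAT, ornithine aminotransferase, fell 1.91-fold (edgeR adjusted p = 6.15e-10), and GLUD1 (-0.51) and ALDH4A1 (-0.44) fell too. Of 4 genes of pyridoxal phosphate supply, the cofactor of TAT, AGXT and SDS, 2 fell and 0 rose, beside 22.0% lower over all genes. With unadjusted library sizes 1 of them fell and 1 rose, beside 14.4% lower and 30.1% higher over all genes. Those that fell in the main fit were PLPBP, which binds the cofactor (-0.42), and PDXP, a phosphatase that removes it (-0.14, adjusted p = 0.0416 by edgeR, passing in 5 of 14 alternatives).

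In lysine and histidine degradation 2 of 8 tested genes rose, 3 fell and 3 did not pass, beside 20.8% higher and 22.0% lower over all genes. HAL, histidine ammonia-lyase, rose 2.26-fold, from 10.8 ± 0.557 to 24.4 ± 2.70 CPM (SD, n = 3 each; edgeR adjusted p = 3.28e-09). FTCD, a later enzyme of histidine breakdown, rose as well (log2 fold change 0.52, edgeR adjusted p = 0.000299). The lysine enzymes AASS (-0.37), DHTKD1 (-0.40) and GCDH (-0.33) fell. HPD and HAL were thus the steepest rises in the lists. Other genes of HPD's own pathway fell, whereas the genes that fell in HAL's list were those of lysine breakdown.

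Of 10 hepatocyte regulators, 2 rose, 4 fell and 4 did not pass, with a median of -0.12, beside 20.8% higher and 22.0% lower over all genes. With unadjusted library sizes the balance turned round, to 4 higher and 2 lower, beside 30.1% higher and 14.4% lower over all genes. ONECUT1 (log2 fold change 0.38, edgeR adjusted p = 0.000555) and FOXA3 (0.20, edgeR adjusted p = 0.0103) rose. PPARA (-0.26), CEBPB (-0.23), CEBPA (-0.18) and HNF4A (-0.12) fell. CEBPA missed the threshold with library size alone, and HNF4A in 6 alternatives.

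Markers of the hepatocyte moved in the same direction as most members. All 8, among them ALB and AFP, were present at high level and fell, beside 22.0% of all genes. Their levels summed to 21237 to 22842 CPM in oeALKBH5 and 32359 to 32918 CPM in control. The libraries are bulk RNA of 1 cell line, where a change in some cells and a change in all cells cannot be told apart. The part of the marker shift in the falls of AGXT, TDO2, TAT, PCBD1 and HGD was not tested. Markers of the kidney proximal tubule, which also degrades amino acids, summed to 25.0 to 29.4 CPM in oeALKBH5 and 47.8 to 50.2 CPM in control, and 4 of 7 stayed under 1 CPM in every library. Of those tested, LRP2 and CUBN fell. Macrophage markers summed to 137 to 160 CPM against 144 to 149 CPM, nearly all of it CD68; MARCO fell, and CD163, C1QA and CSF1R were at or under 0.156 CPM. Endothelial markers summed to 11.6 to 12.3 CPM against 17.5 to 21.3 CPM, nearly all of it PECAM1, which fell. Fibroblast markers were somewhat higher, at 31.2 to 32.1 CPM against 24.5 to 26.4 CPM, with COL1A1 and COL1A2 risen, LUM fallen, and DCN and ACTA2 under 1 CPM. Cholangiocyte markers summed to 269 to 301 CPM in oeALKBH5 and 371 to 372 CPM in control, where SOX9 rose and EPCAM and KRT19 fell.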

How the data were processed

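RNA sequencing of 3 oeALKBH5 and 3 control libraries of Huh-7 cells was analysed. The deposited tables hold estimated counts for each RefSeq transcript, unscaled between libraries, and FPKM of the same transcripts. The submitters' processing notes name RSEM 1.2.8, Bowtie2 2.2.5, HISAT2 2.1.0 and GRCh38.p13. What each tool did, any filter and the use of strand: not given in the sources used here. Counts split among similar transcripts by a model make single transcripts uncertain.

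Values were summed by Entrez identifier and counts rounded. Symbols matched 17881 of 18030 genes, and the rest held 0.0264% of counts. Counts were tested with edgeR 4.0.16 (R 4.3.3): TMM scaling, filterByExpr (minimum count 10), a robust quasi-likelihood F-test, two-sided, and p-values adjusted by Benjamini-Hochberg over all 14168 genes, or all 45502 transcripts. CPM used TMM-scaled totals. For FPKM, limma 3.58.1 was run on log2(FPKM + 1) of the 12016 genes with a value of at least 1 in 3 libraries. The FPKM test used no further scaling between libraries. Thresholds were adjusted p under 0.05. Totals of 18607084 to 19378030 counts set the precision of low genes.

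The 9 members and the gene lists were chosen with earlier results of these data known. Named genes were ALKBH5, the members, NR3C1, the paralogs HPDL, SDSL and PCBD2, up to 3 genes in each direction per list by p (all where 5 or fewer passed), and transcripts with at least 10% of a member's counts; the other transcripts, marker genes and list genes that were not tested were named after their values were seen. Some genes of the lists first drawn up are not reported here, and the counts and medians of those lists leave them out. Alternatives were other scalings, filters, DESeq2 1.42.0, limma-voom, a replicate block, a threshold of 0.01 and leaving out each library. No libraries agreed within counting noise (chi-square per degree of freedom 1.65 to 7.16 within groups), so each counted once. Positions and GGACT sites came from GENCODE release 29; promoter windows came from RefSeq GRCh38.p14, found for 7 of 9 members, and TAT and HGD had no entry. The 4 motifs, spelled out beside their results, were searched on both strands. Scripts were tested on simulated data. Figures were drawn with matplotlib 3.10.9.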

Additional observations from a re-analysis of the deposited data

How the results depend on the processing

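HPD stayed the 1 member higher on counts and on FPKM in every alternative run. Members lower numbered 5, and 3 with library size alone, a scaling that moved the median of all genes from 0.01 to 0.09 and gave 4266 higher and 2047 lower genes. Leaving out 1 library gave 3 to 5, with 3 without oeALKBH5 replicate 2, where TAT and HGD missed the threshold. On FPKM 3 members were lower, and 3 or 4 with a library left out. Member transcripts lower numbered 2, 1 with library size alone, 1 with no filter, and 0 to 1 with a library left out. With the replicate block 0 member transcripts were lower, the gene counts stayed at 1 higher and 5 lower, the adjusted p of ALKBH5 was 0.0538, and 6469 genes passed against 6062. Same-numbered libraries had deviations that correlated at -0.019, 0.016 and -0.012, and oeALKBH5 replicate 1 correlated most with control replicate 3. No pairing by number was seen, though correlations over all genes could miss one that touches few genes. Of the pathway lists, the phenylalanine and tyrosine genes that fell numbered 1 instead of 3 with library size alone and without oeALKBH5 replicate 2; with library size alone the regulators gave 4 higher and 2 lower (reported 2 and 4). The other list counts that moved by over 1.5 times were of 3 or fewer genes: branched-chain higher 0 to 3 (reported 1), tryptophan higher 1 (reported 2), transamination, serine, tetrahydrobiopterin and pyridoxal higher 1 (reported 0), pyridoxal lower 1 (reported 2) and regulators higher 1 (reported 2). Larger lists also moved with library size alone, by up to 1.5 times. Genes that fell then numbered 9 in the serine list (reported 12), 10 in the branched-chain list (reported 15) and 4 in transamination (reported 6). Over all genes 14.4% were then lower, against 22.0% in the main fit. DESeq2 passed 4991 genes and limma-voom 5977. No result changed direction past its threshold in any alternative. The causes of these changes were not tested. Low counts limit HPD, TAT and TDO2, and SDS had too few counts for a test.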
